A study of Homo sapiens with 4 samples.

Results

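The module described here holds 50 genes of homologous recombination, the Fanconi anemia pathway and other DNA repair. Its members were listed by gene symbol, and a probe of the array was taken as a member's where its RefSeq accession belongs to that gene. All 50 were found among the 22439 genes that the array's probes could be matched to, with 71 probes. The measured values played no part in the rule, but the list was drawn up with earlier results of these data known. RNA came from cells labeled as A549, an established lung adenocarcinoma cell line grown in RPMI medium. The 4 one-color arrays comprised 1 for cells given *miR-486-5p* (5p cells), 1 for cells given *miR-486-3p* (3p cells), and 2 for mock cells, which had received only the transfection reagent (Lipofectamine RNAiMAX). *miR-486-5p* and *miR-486-3p* are the strands of the pre-*miR-486* duplex, and the study used the arrays to search for genes that either strand controls. The time between transfection and RNA extraction was not given in the sources used here, and the labels do not say whether the mock arrays came from separate cultures, so that their spread may be technical.

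Homologous recombination repairs a broken chromosome with the sister chromatid as the template, and is therefore used mainly in cells that are copying or have copied their DNA. The ends of the break are first resected to single-stranded DNA, BRCA1, PALB2 and BRCA2 then help to assemble a protein filament on it that pairs with the template, and helicases and nucleases finally separate the joined molecules. The Fanconi anemia pathway removes crosslinks between the DNA strands: a core complex ubiquitinates FANCD2 and FANCI, which recruit the nucleases, and recombination completes the repair. Many of these genes are transcribed mainly in S and G2 phase.

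Levels are given as log2 of the background-corrected signal relative to the 75th percentile of the same array, so that a level of 0 equals that percentile. A difference is the level on the transfected array minus the mean of both mock arrays, averaged over the probes in use. limma was fitted to the 33498 probes in use, those that passed the filter on background. A gene is called where limma gave at least 1 of its probes an adjusted p under 0.05 in the gene's direction. Between 30690 and 31516 of 58201 probes were well above background on an array, and no spot was saturated. For the members, 70 of the 71 probes were in use, and 48 of the 50 members were well above background with every probe in use on all 4 arrays. The standard error of a member probe's difference had a median of 0.0975 (n = 1 transfected and 2 mock arrays) and ranged from 0.0873 to 0.317. As each strand has 1 array, this error comes from the mock pair and from the prior that limma shares across probes. The mock arrays differed by a median of 0.08 over the members and by at most 0.58, for *XRCC2*.

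Part of the markers of the labeled cell line were not found. Of 9 genes listed as high in A549, 6 were well above background on all 4 arrays with at least 1 probe, namely the epithelial keratins *KRT8*, *KRT18* and *KRT19*, and *AKR1C1*, *ALDH1A1* and *NQO1*. The brightest probes of *KRT19*, *AKR1C1* and *ALDH1A1* were dim in mock cells, with levels from −3.50 to −2.05. *CDH1* (E-cadherin) was well above background on no array, *AKR1B10* on 1 array at most with either probe and on neither mock array, and *EPCAM* on 2 arrays. *CDKN2A*, which is deleted in A549, was well above background on all 4 arrays, with a level of 4.77 on both mock arrays, 4.39 in 5p cells and 2.54 in 3p cells. The data thus go against part of the label, the cells are called here only by their treatment, and the part of this mismatch in the results was not tested. Of 12 genes listed as low there, 8 were well above background on all 4 arrays with at least 1 probe, *CDKN2A* among them. *COL3A1*, *PECAM1* and *SFTPA1* were well above background on none.

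Most members were lower in the transfected cells, and more of them in 3p cells. After *miR-486-5p*, 18 of 50 members (36%) fell and 0 rose, against 6.75% and 3.5% of the 16024 genes measured for that strand. After *miR-486-3p*, 42 of 50 (84%) fell and 2 rose, against 30.9% and 31.7% of 16446 genes. All 18 members that fell in 5p cells also fell in 3p cells. The median difference of the members was −0.80 in 5p cells and −1.57 in 3p cells, whereas that of all genes measured was 0.03 and 0.06. With normexp background correction, the median of the members was −0.48 and −0.86. Both comparisons use the same mock arrays and are therefore not independent of each other. In bulk RNA, less transcript per cell and fewer cells that make the transcript cannot be told apart.

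Size gave the same picture. Differences below −0.5 were found for 32 members in 5p cells and for 41 in 3p cells, against 15.9% and 27.2% of all genes measured. The transfected level lay below both mock arrays for 40 members in 5p cells and for 47 in 3p cells, and above both for 8 and 3. Of all genes measured, 42.7% and 45.1% lay below both mock arrays, and 47.3% and 49.7% above both. After *miR-486-3p*, 37 members lay below −1 and 16 below −2, against 14.1% and 3.21% of all genes. After *miR-486-5p*, 15 lay below −1, against 4.61%.

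The adjusted p of the 18 members that fell in 5p cells ranged from 0.0475 to 0.0489, close under the threshold, and 11 more members lay between 0.05 and 0.06. Without adjustment, 39 members passed as lower and 3 as higher (*ATM*, *SLX4* and *PMS2*) in limma, against 25.1% and 23.2% of all genes. The methods' t-test gave 24 lower and 0 higher before adjustment, against 14.2% and 12.3% of all genes, and it called no gene of the array after adjustment. Under other settings, limma called 0 to 39 members lower in 5p cells, and the share of all genes called lower ranged from 0% to 25.2%. One setting that gave 0 used the authors' deposited log2 values, from which the module's rule takes its values. After *miR-486-3p*, the smallest adjusted p was 0.00762 and the largest among the 42 was 0.0316.

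**Figure D1:**
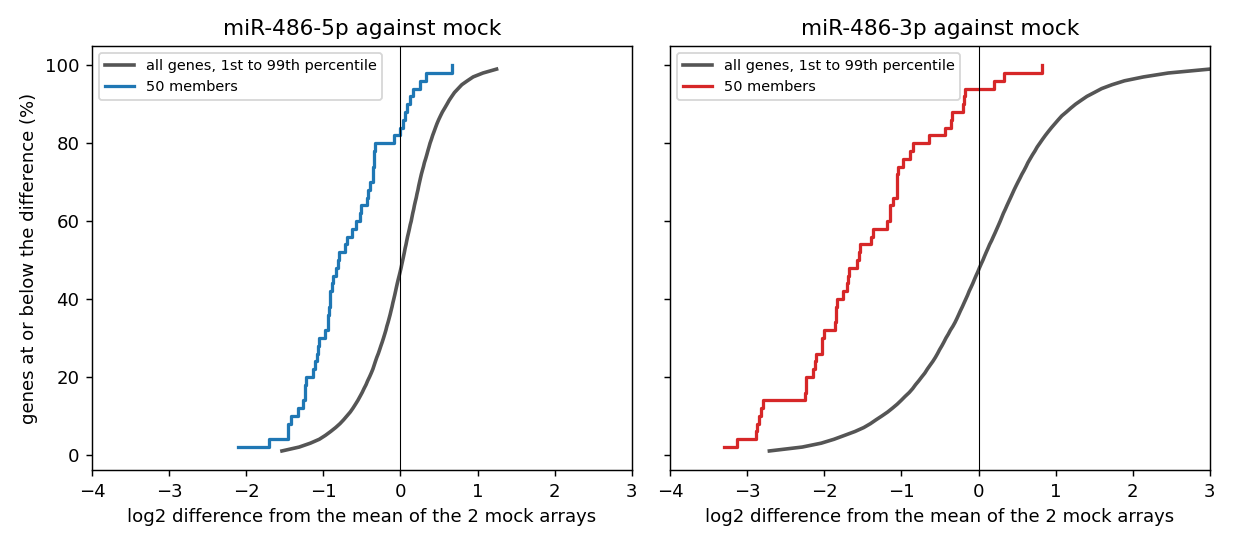
Cumulative share of genes (y axis, %) at or below a log2 difference from the mean of both mock arrays (x axis), for the 50 members (colored steps) and for all genes measured (gray, 1st to 99th percentile), in 5p cells (left) and 3p cells (right). The members' median lay at −0.80 and −1.57, that of all genes at 0.03 and 0.06.

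Assembly of the filament and strand exchange are the task of the largest group, in which 10 of 11 genes fell in 3p cells and 6 in 5p cells. Of all genes measured, 30.9% fell in 3p cells and 6.75% in 5p cells. *BRCA1*, the ubiquitin ligase that promotes resection, had levels of 1.07 and 0.95 in mock cells, −0.45 in 5p cells and −1.11 in 3p cells. Both transfected arrays lay below both mock arrays, and *BRCA1* changed by −1.46 and −2.12, that is, it was 2.75-fold and 4.36-fold lower, and both changes were called. Its partner *BARD1* also fell, with −1.07 in 5p cells and −1.71 in 3p cells. *BRCA2*, which acts in filament assembly, fell by 1.55 in 3p cells, and its difference of −1.33 in 5p cells missed the threshold (adjusted p = 0.0519 in limma).

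*RAD51AP1*, which stimulates strand exchange, had the largest measured fall of the module. Its level was 0.13 and 0.20 in mock cells, −1.09 in 5p cells and −3.13 in 3p cells. It fell by 1.26 in 5p cells, and it fell by 3.30 in 3p cells, where 10.2% of the mock signal was left. The genes of the motor proteins that remodel the filaments moved likewise. *RAD54L* stood at 3.50 and 3.53 in mock cells, at 2.09 in 5p cells and at 0.66 in 3p cells. Both *RAD54L* and *RAD54B* fell, with −1.42 and −1.24 in 5p cells and −2.85 and −2.15 in 3p cells, and both *RAD54B* probes were called for both strands.

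The genes of the paralog complexes, which help to form the filament, differed among themselves. *XRCC3* had levels of 4.33 and 4.41 in mock cells, 3.31 in 5p cells and 1.50 in 3p cells, differences of −1.06 and −2.87 that were both called. *RAD51C*, its partner, had 4.04 and 3.97 in mock cells, 4.17 in 5p cells and 2.31 in 3p cells. It thus lay above both mock arrays in 5p cells, with a difference of 0.17 (adjusted p = 0.292 in limma), and fell by 1.69 in 3p cells. *RAD51B* fell by 1.15 in 3p cells through 1 probe, and its other probe was well above background on no array. *PALB2*, the bridge between BRCA1 and BRCA2, resembled *RAD51C*: levels of −1.34 and −1.54 in mock cells, −1.45 in 5p cells and −3.12 in 3p cells, where it fell by 1.69. *XRCC2* was called for neither strand, with differences of −0.79 and −0.35, and had the widest gap between the mock arrays (1.27 and 1.85).

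**Figure D2:**
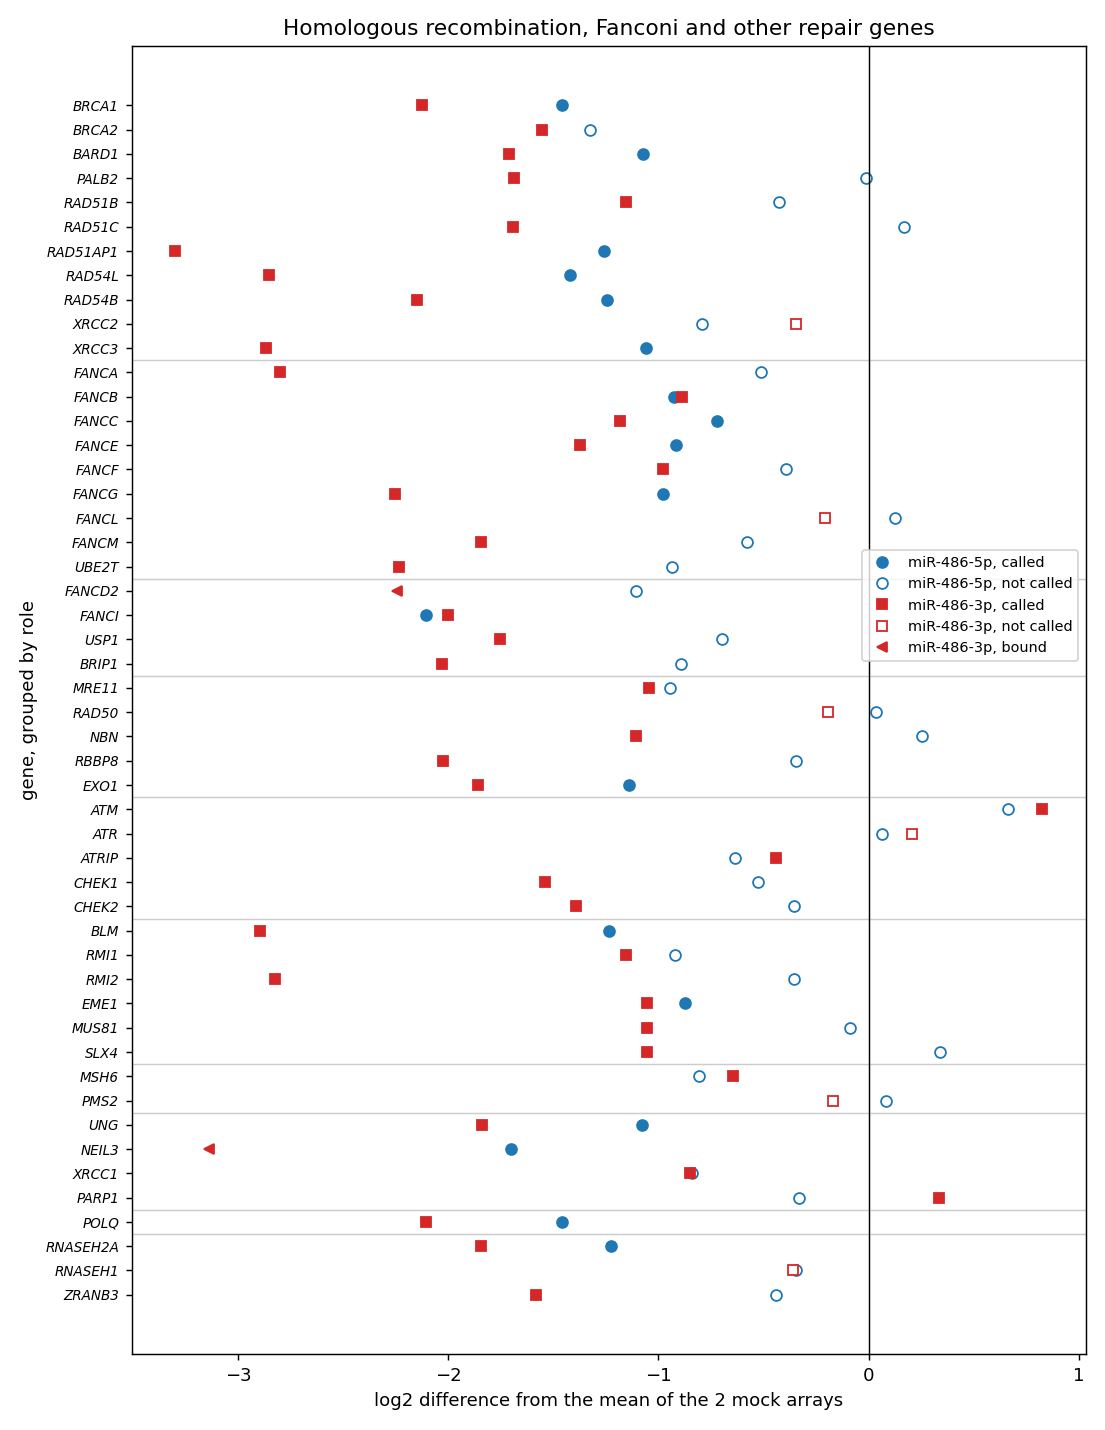
Log2 difference from the mean of both mock arrays (x axis) for each of the 50 members (y axis, grouped by role, gray lines between the roles), in 5p cells (blue circles) and 3p cells (red squares, triangles for lower bounds on a fall). Filled symbols were called by limma: 18 falls in 5p cells, and 42 falls and 2 rises in 3p cells.

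The Fanconi core complex and its E2 enzyme *UBE2T* gave 8 falls of 9 in 3p cells and 4 in 5p cells. The shares over all genes measured were 30.9% and 6.75%. *FANCA*, a scaffold subunit, had a mean level over its 3 probes of 1.10 and 1.01 in mock cells, 0.54 in 5p cells and −1.75 in 3p cells. It fell by 2.80 in 3p cells, and was 6.97-fold lower, and all 3 probes were called. After *miR-486-5p* its difference was −0.51 and no probe was called. *FANCG*, which binds FANCA directly, fell in both (−0.98 and −2.25).

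*UBE2T*, which passes ubiquitin to FANCD2, had levels of 5.28 and 5.12 in mock cells, 4.26 in 5p cells and 2.96 in 3p cells. Its fall (−2.23) in 3p cells was called, and its difference of −0.94 in 5p cells was not (adjusted p = 0.0537 in limma). *FANCM*, the translocase that anchors the complex on DNA, fell by 1.84 in 3p cells, against a difference of −0.58 in 5p cells. The falls of *FANCB* (−0.92 and −0.89), *FANCC* (−0.72 and −1.19) and *FANCE* (−0.92 and −1.37) were called for both strands, and that of *FANCF* (−0.98) in 3p cells. *FANCL*, the ubiquitin ligase subunit, was called for neither, with differences of 0.12 and −0.21.

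*FANCI* and *FANCD2* form the clamp that the core complex ubiquitinates. *FANCI* had levels of 2.61 and 2.52 in mock cells, 0.46 in 5p cells and 0.56 in 3p cells. Its fall (−2.11) in 5p cells was the largest of the module for that strand, and in 3p cells, where it was 4.01-fold lower, its level differed from that in 5p cells by 0.10, with an adjusted p of 0.516 in limma for the direct contrast. *FANCD2* had a mean level over 3 probes of −0.07 and −0.17 in mock cells, −1.23 in 5p cells and, as measured, −2.75 in 3p cells. It fell at least 4.74-fold in 3p cells, as a bound, since 1 of its 3 probes was not well above background there. Its difference of −1.11 in 5p cells was not called (adjusted p = 0.0532 in limma). *USP1*, which removes the ubiquitin, and the helicase *BRIP1* fell in 3p cells (−1.75 and −2.03), and had differences of −0.70 and −0.89 in 5p cells.

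Sensing and resection of the break is begun by the MRE11-RAD50-NBN complex, of whose genes *NBN* and *MRE11* fell in 3p cells. *RAD50* was called for neither strand, with levels of 1.83 and 1.76 in mock cells, 1.83 in 5p cells and 1.60 in 3p cells. *NBN* had 0.91 and 0.69 in mock cells, 1.05 in 5p cells and −0.31 in 3p cells, a fall in 3p cells (−1.11). *MRE11*, the nuclease, had 1.07 and 0.76 in mock cells, −0.03 in 5p cells and −0.13 in 3p cells. Both transfected arrays lay below both mock arrays for *MRE11*, and its fall (−1.05) was called in 3p cells. Its difference of −0.94 in 5p cells was not called (adjusted p = 0.0763 in limma). *RBBP8* (CtIP), the activator of MRE11, fell by 2.03 in 3p cells and had a difference of −0.35 in 5p cells. *EXO1*, the exonuclease of long-range resection, fell in both (−1.14 and −1.86).

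The 5 genes of the checkpoint kinases and their partner gave 3 falls and 1 rise in 3p cells and no call in 5p cells. Over all genes measured, 30.9% fell and 31.7% rose in 3p cells, and 6.75% and 3.5% in 5p cells. The effector kinases *CHEK1* and *CHEK2* fell in 3p cells (−1.54 and −1.39), and had differences of −0.53 and −0.35 in 5p cells. Of the apical kinases, *ATR* was called for neither strand, with differences of 0.06 and 0.20. *ATM* had a mean level over both probes of −1.03 and −0.90 in mock cells, −0.30 in 5p cells and −0.14 in 3p cells, and both transfected arrays lay above both mock arrays. Its rise of 0.82 in 3p cells rests on 1 probe, at 1.47, as the other was at 0.18 and not called. Its difference of 0.66 in 5p cells was not called (adjusted p = 0.0562 in limma). *ATRIP*, the partner of ATR, fell by 0.44 in 3p cells through 1 of its 2 probes.

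Joined molecules are taken apart by the BLM helicase complex or cut by nucleases, and all 6 genes of this group fell in 3p cells. The share over all genes measured was 30.9% there. *BLM* had levels of 2.53 and 2.42 in mock cells, 1.24 in 5p cells and −0.42 in 3p cells, differences of −1.24 and −2.89 that were both called. *RMI2*, a subunit of the same complex, had 3.32 and 3.29 in mock cells, 2.95 in 5p cells and 0.48 in 3p cells. Its fall (−2.82) in 3p cells stood beside a difference of −0.36 in 5p cells, which was not called. The subunit *RMI1* fell by 1.15 in 3p cells. The nuclease genes *EME1*, *MUS81* and the scaffold *SLX4* each had −1.06 there, all called, whereas their differences in 5p cells were −0.87, −0.09 and 0.34, of which that of *EME1* was called.

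Of the genes of other pathways, *NEIL3*, a glycosylase that also unhooks crosslinks, had levels of −1.13 and −1.29 in mock cells, −2.91 in 5p cells and −4.35 in 3p cells. It fell by 1.70 in 5p cells, and at least 8.80-fold in 3p cells, where it was not well above background. *UNG*, which removes uracil from DNA, had 5.90 and 5.80 in mock cells, 4.77 in 5p cells and 4.01 in 3p cells, differences of −1.08 and −1.84 that were both called. *POLQ*, the polymerase of theta-mediated end joining, fell in both (−1.46 and −2.11). *RNASEH2A*, the catalytic subunit of RNase H2, had 4.39 on both mock arrays, 3.17 in 5p cells and 2.55 in 3p cells, differences of −1.22 and −1.84 that were both called.

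*ZRANB3*, a remodeler of stalled forks, fell by 1.58 in 3p cells, and *RNASEH1* was called for neither strand (−0.35 and −0.36). The *RNASEH1* values rest on 1 probe. The paper lists *RNASEH1* as a putative target of both strands, with larger falls than here. It lists *ZRANB3* too, with falls slightly larger than the −0.44 in 5p cells and −1.58 in 3p cells found here. The cause of the gap for *RNASEH1* was not tested. *MSH6*, which recognizes mismatches, and *XRCC1*, the scaffold of single-strand break repair, fell in 3p cells (−0.65 and −0.85). Their differences in 5p cells, −0.81 and −0.84, were not called (adjusted p = 0.0524 and 0.0593 in limma). *PMS2*, the nuclease subunit of mismatch repair, was called for neither, at 0.08 and −0.17. *PARP1*, which detects strand breaks, was the only other member to rise in 3p cells. It had 2.34 and 2.32 in mock cells, 2.00 in 5p cells and 2.66 in 3p cells, a rise of 0.33 that rests on 1 of 2 probes.

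**Figure D3:**
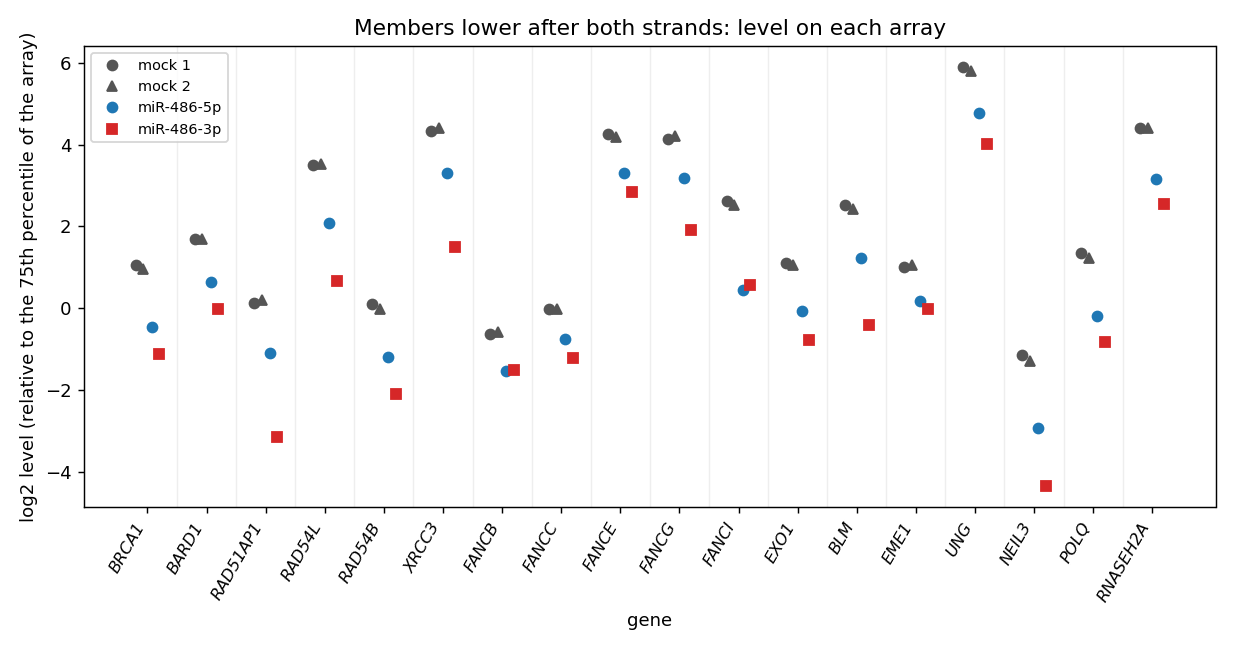
Log2 level relative to the 75th percentile of the array (y axis) on each of the 4 arrays for the 18 members that fell after both strands (x axis). For each gene both transfected arrays lay below both mock arrays (gray); *FANCI* and *FANCB* were the genes whose level in 3p cells (red) was not below that in 5p cells (blue).

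Compared directly, 32 of the 50 members were lower in 3p cells than in 5p cells and 2 were higher, against 26.5% and 26.2% of 16662 genes. Of the 18 members that fell after both strands, 14 were also lower in 3p cells in this contrast, and *FANCB*, *FANCE*, *FANCI* and *EME1* were not called. Of the 24 that fell in 3p cells and were not called in 5p cells, 18 were lower. The largest of these differences between the strands were those of *RMI2* (−2.47), *FANCA* (−2.29), *RAD51C* (−1.86), *RBBP8* (−1.68) and *PALB2* (−1.68). For *BRCA2* (−0.23), *MRE11* (−0.10), *RMI1* (−0.24), *MSH6* (0.16) and *XRCC1* (−0.01), the direct contrast was not called, so that a difference between the strands was not shown for them. The 2 members called higher in 3p cells than in 5p cells were *PARP1* (0.66) and *ATRIP* (0.19), each through 1 of its 2 probes.

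Several probes were in use for 13 members, and for some the probes disagreed. The *FANCC* probes gave −0.50 and −0.94 in 5p cells, of which the second was called, and −0.45 and −1.92 in 3p cells, both called. The *ATRIP* probes gave −0.80 and −0.47 in 5p cells, and −0.31 and −0.57 in 3p cells. The *FANCA* probes gave −0.75, −0.21 and −0.57 in 5p cells, and −2.40, −3.68 and −2.32 in 3p cells. The order of a gene's probes, whatever the size of the gaps between them, differed between the strands for 10 of the 13, *FANCA*, *ATRIP* and *ATM* among them, and was the same for *ATR*, *FANCC* and *FANCL*. How often the order would differ by chance was not worked out, so that this count is a description only. After *miR-486-5p*, the probes lay on both sides of −0.5 also for *FANCF* (−0.52 and −0.27), *ZRANB3* (−0.56 and −0.32) and *CHEK2* (from −0.50 to −0.30), and on both sides of 0 for *ATR* (−0.04 and 0.16). The 5 probes of *PMS2* ranged from −0.07 to 0.38 in 5p cells and from −0.36 to 0.11 in 3p cells. *PMS2*, *CHEK2* and *FANCD2* have near-identical pseudogene copies in the genome, so that their values are uncertain.

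**Figure D4:**
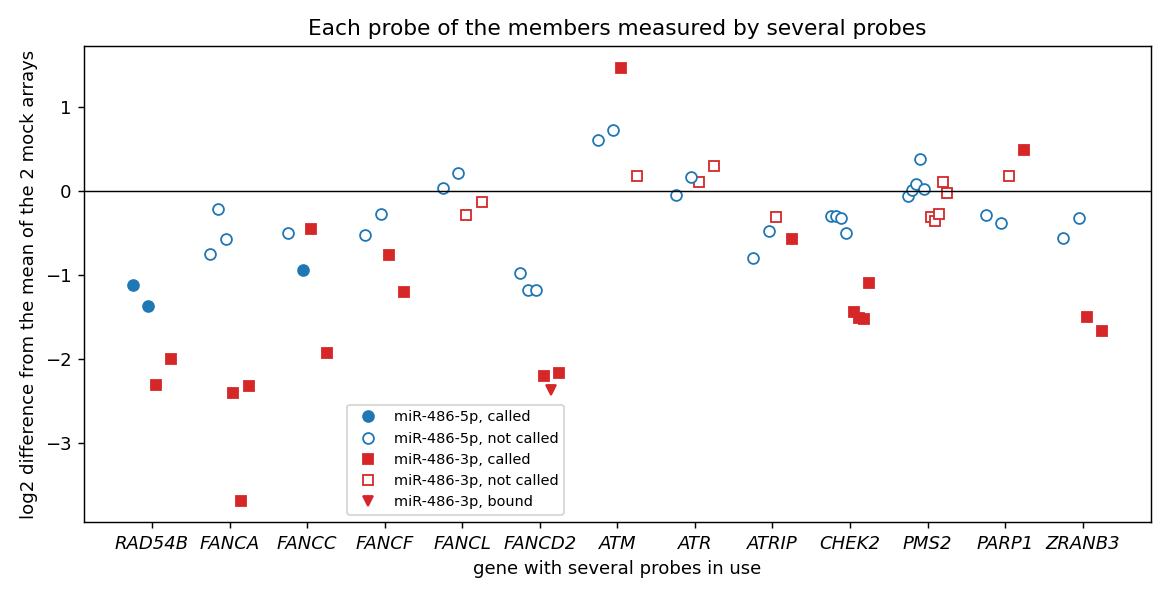
Log2 difference from the mean of both mock arrays (y axis) of each probe of the 13 members measured by several probes (x axis), in 5p cells (blue circles) and 3p cells (red squares, triangle for a lower bound on a fall). Filled symbols were called by limma; the *FANCC* probes in 3p cells (−0.45 and −1.92) and the *ATM* probes (1.47 and 0.18) were among those farthest apart.

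The starts of these genes were searched for short motifs of cell cycle transcription factors, since many members moved together. RefSeq promoter windows (GRCh38.p14, 250 bases before to 50 after a start) were at hand for 46 of the 50 members, 66 windows in all, and for 27305 genes, 35116 windows. An E2F motif (TTTCCCGC, TTTCGCGC, TTTGGCGC or TTTGCCGC on either strand) was found in 10 of the 66 windows (15.2%), against 3.31% of all windows. A CHR element (TTTGAA or TTCGAA) was found in 16.7%, against 16.4%, and a CCAAT box in 53.0%, against 34.6%. The 9 members with an E2F match were *XRCC2*, *FANCA*, *FANCC*, *FANCD2*, *EXO1*, *RMI1*, *MSH6*, *PMS2* and *UNG*. Their median difference was −0.81 in 5p cells and −1.19 in 3p cells, and that of the 37 members without a match was −0.70 and −1.55. For the CHR element, the medians were −0.87 and −1.80 with a match (10 members), and −0.71 and −1.38 without. For the CCAAT box, they were −0.82 and −1.72 with a match (26 members), and −0.76 and −1.17 without. A match to these letters is a description and does not show that a factor binds.

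The windows of the 4 members with the largest falls in 3p cells that hold an E2F match and were well above background on all 4 arrays are shown, and that of *ATM*, the member with the largest rise, beside them. They run from 250 bases before to 20 after the start, in the direction of the gene, with the motif matches in capitals: *FANCA* at chr16:89816628-89816897 (minus strand), *EXO1* at chr1:241847954-241848223 (plus strand), *UNG* at chr12:109097922-109098191 (plus strand), *FANCC* at chr9:95317690-95317959 (minus strand) and *ATM* at chr11:108222817-108223086 (plus strand).
FANCA: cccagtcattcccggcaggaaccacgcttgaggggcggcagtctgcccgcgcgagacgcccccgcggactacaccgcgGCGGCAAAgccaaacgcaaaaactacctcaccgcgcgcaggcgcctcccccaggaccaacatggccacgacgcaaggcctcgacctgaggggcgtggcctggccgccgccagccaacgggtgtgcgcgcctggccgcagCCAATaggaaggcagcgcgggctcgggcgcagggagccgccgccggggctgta
EXO1: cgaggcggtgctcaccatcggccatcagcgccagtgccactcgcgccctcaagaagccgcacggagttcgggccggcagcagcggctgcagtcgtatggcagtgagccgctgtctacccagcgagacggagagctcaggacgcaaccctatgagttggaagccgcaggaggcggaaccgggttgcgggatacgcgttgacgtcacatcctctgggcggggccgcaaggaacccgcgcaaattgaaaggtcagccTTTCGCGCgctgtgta
UNG: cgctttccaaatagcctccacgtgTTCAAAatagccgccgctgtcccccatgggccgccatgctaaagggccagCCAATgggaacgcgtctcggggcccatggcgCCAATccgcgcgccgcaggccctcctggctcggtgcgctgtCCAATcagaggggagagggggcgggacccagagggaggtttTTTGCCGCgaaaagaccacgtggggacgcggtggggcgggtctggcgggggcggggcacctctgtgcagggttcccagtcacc
FANCC: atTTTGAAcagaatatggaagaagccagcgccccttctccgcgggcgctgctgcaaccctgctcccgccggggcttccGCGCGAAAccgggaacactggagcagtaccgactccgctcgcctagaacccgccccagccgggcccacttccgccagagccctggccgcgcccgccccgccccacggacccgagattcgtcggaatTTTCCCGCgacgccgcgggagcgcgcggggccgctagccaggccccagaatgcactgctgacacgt
ATM: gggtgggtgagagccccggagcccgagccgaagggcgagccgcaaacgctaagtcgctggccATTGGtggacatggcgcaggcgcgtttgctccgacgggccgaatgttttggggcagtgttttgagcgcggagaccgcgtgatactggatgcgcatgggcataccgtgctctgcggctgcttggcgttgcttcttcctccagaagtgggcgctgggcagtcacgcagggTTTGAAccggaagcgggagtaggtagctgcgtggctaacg

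Counted from the start as base 1, the E2F match of *FANCA* began at base −172, that of *UNG* at −63, and the 2 matches of *FANCC* at −172 and −46. The match of *EXO1* began at base 5 of the transcript. *UNG* also held 3 CCAAT boxes and 1 CHR element. The *ATM* window held a CHR element at base −20 and a CCAAT box at −188, but none of the E2F words. No match in these 5 windows overlapped another.

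Other DNA repair genes, of the same pathways and of pathways without a member, were measured alongside, 96 of 98 listed. After *miR-486-5p*, 10 of them (10.4%) fell and 2 rose, against 6.75% and 3.5% of all genes measured. In 3p cells, 51 (53.1%) fell and 20 rose, against 30.9% and 31.7%. The median difference of the other repair genes was −0.13 and −0.45. The histone variant gene *H2AX* and *DCLRE1B*, an exonuclease, fell (−1.20 and −1.22) in 5p cells, and *GEN1*, a resolvase, had a difference of −1.30 there that was not called. Among the largest falls in 3p cells were those of *APEX2* (−2.93), an endonuclease at abasic sites, and *FAAP24* (−1.97), a partner of FANCM. In 5p cells, *ERCC1* (1.37), a subunit of a repair nuclease, and the DNA glycosylase *TDG* (1.12, called through 1 of its 2 probes) rose. The uracil glycosylase *SMUG1* had a difference of 0.77 there that was not called. *ERCC1* (−0.73) and, through 1 of its 2 probes, *SMUG1* (−0.94) fell in 3p cells, where *TDG* rose (0.89). In 3p cells, *UVSSA* (1.38) and *ERCC5* (1.18) of nucleotide excision repair rose, as did *RNF168* (1.26), a ubiquitin ligase at breaks. The share that fell in 3p cells was 58.8% among 17 other recombination genes and 64.3% among 14 other Fanconi genes. It was 35.3% among 17 genes of nucleotide excision repair, near the 30.9% of all genes. In these lists 2, 1 and 7 genes rose, in that order.

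**Figure D5:**
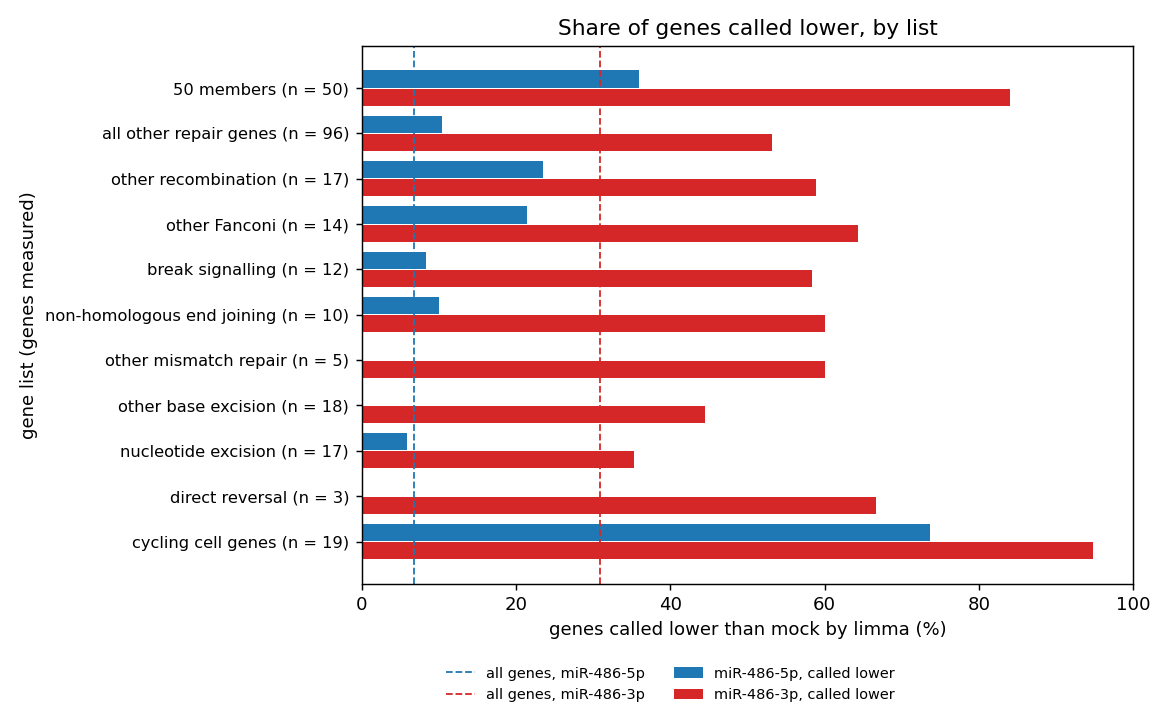
Share of genes called lower than mock by limma (x axis, %) in the module, in the other repair genes with their sublists, and in the cycling cell genes (y axis, genes measured in brackets), in 5p cells (blue) and 3p cells (red). Dashed lines mark the share over all genes, 6.75% and 30.9%; the module lay at 36% and 84%.

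Genes of cycling cells were lower on the same arrays. Of 19 such genes measured, 14 fell in 5p cells and 18 in 3p cells, against 6.75% and 30.9% of all genes. The median differences of the 19 genes were −1.03 and −2.34, against 0.03 and 0.06 over all genes. *MKI67* fell (−0.99 in 5p cells and −3.02 in 3p cells), as did *CCNB1* (−1.01 and −3.27) and *CCNA2* (−1.19 and −3.51). The fall of *MKI67* in 5p cells was called through 1 of its 3 probes. *PCNA* fell by 1.99 in 3p cells, and its difference of −0.79 in 5p cells was not called. The signal of the 19 genes, summed relative to the 75th percentile, was 454 and 437 in mock cells, 198 in 5p cells and 85.6 in 3p cells. How much of the change in the repair genes goes with the share of cycling cells was not tested.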

How the data were processed

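Gene expression was measured on 4 one-color Agilent arrays (1 slide, 1 scan). The authors deposited the spot intensity values of each array as written by Agilent Feature Extraction 12.1.1.1, per the file headers, with the background already subtracted. A second deposited table holds log2 values of these arrays, whose normalization by the authors is not given in the sources used here; it served as an alternative. The rule of the module takes values from that table, but the main run used the scanner signal. The background flags, which come with the scanner signal, filtered the probes in both cases. With that table, the members' medians were −0.76 in 5p cells and −1.59 in 3p cells, and no member was called lower in 5p cells.

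Outlier spots (50 to 72 per array) were left out, log2 was taken, and each array was scaled to its 75th percentile. Probes entered the comparison of a strand when both mock arrays, or that strand's array, were well above background. A group without any array well above background received at least the lowest such signal of the array, and its fold is given as "at least". Probes were named through RefSeq accessions of GRCh38.p14, for names alone: of 33080 such probes, 31104 matched a gene.

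limma (3.58.1, R 4.3.3) was fitted to 33498 probes in 3 groups with Benjamini-Hochberg adjustment over all of them. It had 1 residual degree of freedom, between the mock arrays, and a prior of 1.75 with an SD of 0.0893, and the lone arrays are taken to have the same spread. The number of arrays limits the precision. The fit was tested on simulated arrays that all had the spread of the mock pair. That run could not test whether the lone arrays share this spread. The alternatives were other scalings, background corrections, probe filters, probe summaries, tests and single mock arrays. Members and lists were chosen with earlier results of these data known. All members may be named, and of the other repair genes the 3 largest falls and rises per strand, of which 1 gene is not reported here. Where a gene had several promoter windows, the one with most E2F matches was printed. The sequences of the miRNAs are not reported here.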

Additional observations from a re-analysis of the deposited data

How the results depend on the processing

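After *miR-486-5p*, the number of members called lower (18) was 0 without a filter on dim probes and with limma on gene means. It was also 0 with the deposited log2 values and with the t-test after adjustment. It was 35 over probes well above background on all 4 arrays and 39 with an intensity trend. In these settings, 20.4% and 25.2% of all genes were called lower. The number called higher was 1 and 3 in these, against 17.7% and 22.6%. After *miR-486-3p*, the number called lower (42) was 0 with the t-test after adjustment. The number called higher (2) was 1 without a filter, with the brightest probe, with gene means and with the t-test before adjustment. In that order, 20.1%, 28.3%, 28.6% and 19.7% of all genes were called higher. The number called higher was 0 with the t-test after adjustment, and 0 where every probe of a gene had to be called, an alternative added after seeing the data. Of all genes, 0% and 25.9% were called higher in these. The number lower in the direct contrast (32) was 20 without a filter and with the t-test before adjustment, and 0 after it. The number higher (2) was 1 with median scaling, quantile normalization, no filter, the brightest probe, gene means and the deposited values. It was 0 with the adjusted t-test and where every probe had to be called. The share over all genes in the direct contrast was taken for the main setting only. At a limit of −1, 15 members lay below it after *miR-486-5p*. The median after *miR-486-5p* was −0.83 with median scaling, −0.76 with quantile normalization and with the deposited values, −0.48 with normexp background correction and −0.82 without a filter. That after *miR-486-3p* was −1.62 with median scaling and −0.86 with normexp. Leaving out either mock array gave −0.78 to −0.75 and −1.63 to −1.57. No called member changed sign under the settings run, and the cause of these changes was not tested. The all-gene median moved to 0.0995 and 0.229 without a filter. No paired analysis was possible because each strand has 1 array. limma without a mock array and a slide effect could not be fitted.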
